A study of Homo sapiens with 4 samples.

Results

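Transcripts of 10 genes that are often read as epithelial or mesenchymal were followed in the pancreatic cancer line Panc1 and in gemcitabine-resistant clones of it. The genes are the cadherins CDH1, CDH2, CDH3 and CDH11, the epithelial adhesion molecule EPCAM, the intermediate filament genes VIM and NES, the smooth muscle genes ACTA2 and TAGLN, and the matrix gene FN1. They were chosen by name, as all probes whose gene symbol is one of the 10. This gave 12 probes by the symbols on the array, and 13 after TACSTD1, an older symbol of EPCAM, was updated, of 24460 gene probes in all. One gene, CDH11, was not well above background on any array, and the other 9 genes, with 12 probes, were tested among 16592 genes.

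Panc1 is an epithelial cell line from a human pancreatic ductal carcinoma, and gemcitabine is a deoxycytidine analogue used to treat that cancer. The study compared 1 array of the parental line, grown without gemcitabine, with 1 array of each of 3 resistant clones, GR1, GR3 and GR4. By the labels' account, the resistant cells came from parental Panc1 through stepwise exposure over 2 months, from 2 ng/ml up to 30 ng/ml gemcitabine, and were then cloned by limiting dilution. All cells were kept in Dulbecco's modified Eagle's medium with fetal bovine serum and antibiotics. Each resistant sample is therefore 1 clone from 1 selection, the parental sample is an uncloned line, and the labels do not say whether the clones were in gemcitabine when RNA was taken. The treatment text names the clones GR1, GR2 and GR3, whereas the sample titles give GR1, GR3 and GR4, and the titles were followed.

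Classical cadherins are calcium-dependent adhesion molecules that bind the same cadherin on the next cell, and their cytoplasmic tails hold catenins, which link them to actin. In an epithelial to mesenchymal transition, as described in development and in carcinoma, cells lose E-cadherin (CDH1) and gain N-cadherin (CDH2), vimentin and fibronectin, and some gain smooth muscle actin. In pancreatic carcinoma the same mesenchymal genes are also made in abundance by the fibroblasts and stellate cells of the stroma, which a pure cell line lacks.

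RNA was labelled with Cy5 and read on Toray 3D-Gene oligonucleotide arrays. Levels are spot intensities above the blank spots of the array, quantile normalised between the 4 arrays, in arbitrary units, with a floor of 1.52 units. A log2 difference is the mean of the 3 clones minus the parental array, with the standard error (SE) of a limma fit, and a gene is said to have risen or fallen only where limma's Benjamini-Hochberg adjusted p was under 0.05. The parental line has 1 array, so its spread was taken to equal that of the clones, and a p-value here reflects the spread among these 3 clones of 1 selection alone. Between 91.5% and 93.7% of the gene probes lay above the limit for detection, the mean of the blank spots plus 2 SD, on the 4 arrays. In RNA from a whole culture, fewer cells of a kind and less RNA per cell cannot be told apart. With 4 arrays in all, the number of arrays sets the precision.

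The keratins KRT7, KRT18 and KRT19, which mark simple epithelia, were measured at 4426 to 10553, 18563 to 38459 and 4903 to 10351 units, and KRT8 is not among the named probes. KRT7 and KRT18 were higher than the parental array in all 3 clones and KRT19 was lower. Their log2 differences were 1.01, 0.94 and −0.81 (adjusted p 0.0875, 0.0560 and 0.272 in limma), and none passed. For fibroblasts and stellate cells all 6 markers were tested and none passed the limma test, with summed signals of 670 units for the parental line and of 341, 737 and 446 units for GR1, GR3 and GR4. Of these, 3 were close to the floor, with COL1A1 at 2.23 to 3.71 units, PDGFRA at 2.53 to 3.52 units and COL1A2 at the floor on GR3 and GR4. The other 3 were well above it on all 4 arrays, with LUM at 160 to 562 units, DCN at 103 to 123 units and PDGFRB at 65.2 to 85.3 units. LUM alone gave 454 units of the parental sum and 160, 562 and 266 units of the sums of GR1, GR3 and GR4. The sums therefore mainly follow this 1 probe and are no measure of the share of a cell type. The leukocyte marker PTPRC was not well above background, and the other 3 of 4 leukocyte markers summed to 28.5 to 56.3 units. Of 4 endothelial markers 3 were tested and summed to 49.6 to 55.8 units, of which CLDN5 gave 34.7 to 37.6 units. Of 4 neural markers 2 were tested and summed to 124 to 132 units, of which SOX10 gave 113 to 122 units. These sums too are no measure of the share of a cell type.

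The promoters of the 3 genes with the clearest differences from the parental array are shown here, so that the short sequence motifs near their starts can be seen. RefSeq windows of the assembly GRCh38.p14, from 250 bases before to 50 bases after a transcription start, matched 5 of the 10 genes, with 7 windows. The VIM window lies on the plus strand at chr10:17227991-17228290, the FN1 window on the minus strand at chr2:215436019-215436318, and the ACTA2 window, the second of 2 for that gene, on the minus strand at chr10:88952724-88953023. Capitals mark a cAMP response element (TGACGTCA), a GC box (GGGCGG or CCGCCC) or a CArG box, the site of serum response factor, with up to 1 letter off.
VIM: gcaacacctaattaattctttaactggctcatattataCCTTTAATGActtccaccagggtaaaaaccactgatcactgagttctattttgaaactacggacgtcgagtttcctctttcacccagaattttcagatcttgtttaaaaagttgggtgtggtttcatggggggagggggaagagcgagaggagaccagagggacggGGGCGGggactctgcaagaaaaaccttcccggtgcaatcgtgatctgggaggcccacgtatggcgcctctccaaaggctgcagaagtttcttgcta
FN1: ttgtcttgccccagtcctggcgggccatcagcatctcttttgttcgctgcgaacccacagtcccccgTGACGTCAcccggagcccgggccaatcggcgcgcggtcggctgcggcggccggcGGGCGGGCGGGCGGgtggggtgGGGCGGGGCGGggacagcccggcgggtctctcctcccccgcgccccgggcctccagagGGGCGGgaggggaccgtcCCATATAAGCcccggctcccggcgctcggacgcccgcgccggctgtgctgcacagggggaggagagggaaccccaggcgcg
ACTA2: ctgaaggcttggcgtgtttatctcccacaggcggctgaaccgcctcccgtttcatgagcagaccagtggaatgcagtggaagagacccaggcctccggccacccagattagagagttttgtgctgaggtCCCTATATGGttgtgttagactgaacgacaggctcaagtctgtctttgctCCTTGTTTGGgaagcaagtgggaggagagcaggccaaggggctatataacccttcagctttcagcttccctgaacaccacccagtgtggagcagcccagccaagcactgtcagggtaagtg
FN1 has the cAMP response element, which begins 183 bases before its start, and 6 GC boxes, some of which overlap. VIM has 1 GC box, at 46 bases before the start, and a CArG box at 212 bases. The ACTA2 window shown has CArG boxes at 121 and 71 bases before the start and no GC box. The first ACTA2 window, which is not printed, has GC boxes at 47 and 36 bases before its start and no CArG box, so the motifs found for ACTA2 depend on the window. The FN1 window has a CArG box at 31 bases. Of 35114 RefSeq promoter windows of this length, 1.85% hold the cAMP response element, 45% a GC box and 18.9% a CArG box by the same rule, on both strands. The E-box bound by Snail and ZEB factors (CACCTG or CAGGTG, in 20.6% of windows) and the AP-1 site (TGANTCA, in 7.71%) have no match in these 3 windows, which says only that these letters are not in these bases.

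Vimentin rose in the resistant clones, and fibronectin was lower by a larger ratio without passing the test. The smallest adjusted p of any gene in limma was 0.0442, so all 674 calls lay between 0.0442 and 0.05. FN1, at 0.0517, lay just outside this narrow range, so passing or not separates VIM from FN1 only by a small step. With quantile normalisation every clone lay within 1.5-fold of the parental array for CDH1, CDH2, CDH3 and EPCAM. Other scalings and background models moved some of these values past 1.5-fold. CDH2 and the first EPCAM probe did so under median scaling, and CDH3 and the second EPCAM probe under 2-column normexp. The latter is a background model fitted to the spot and background intensities of the scanner files. It adds 50 units to every signal, as does normexp on the blank-subtracted signals. Such an addition by itself draws the log2 differences of dim probes towards 0. Of the 9 genes tested, 1 (VIM) passed the limma test, where 4.06% of all tested genes did (2.17% higher and 1.89% lower in the clones). VIM and FN1, which is 2 of 9, lay at least 2-fold from the parental array in all 3 clones, as did 7.26% of all genes (3.66% above and 3.6% below). By their brightest probes, 2 genes were higher in all 3 clones (35.3% of all genes) and 4 were lower in all 3 clones (37.8%). The 2 higher genes include EPCAM, whose second probe was lower in all 3 clones. The median log2 difference was −0.003 over these 9 genes and −0.015 over all genes.

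**Figure D1:**
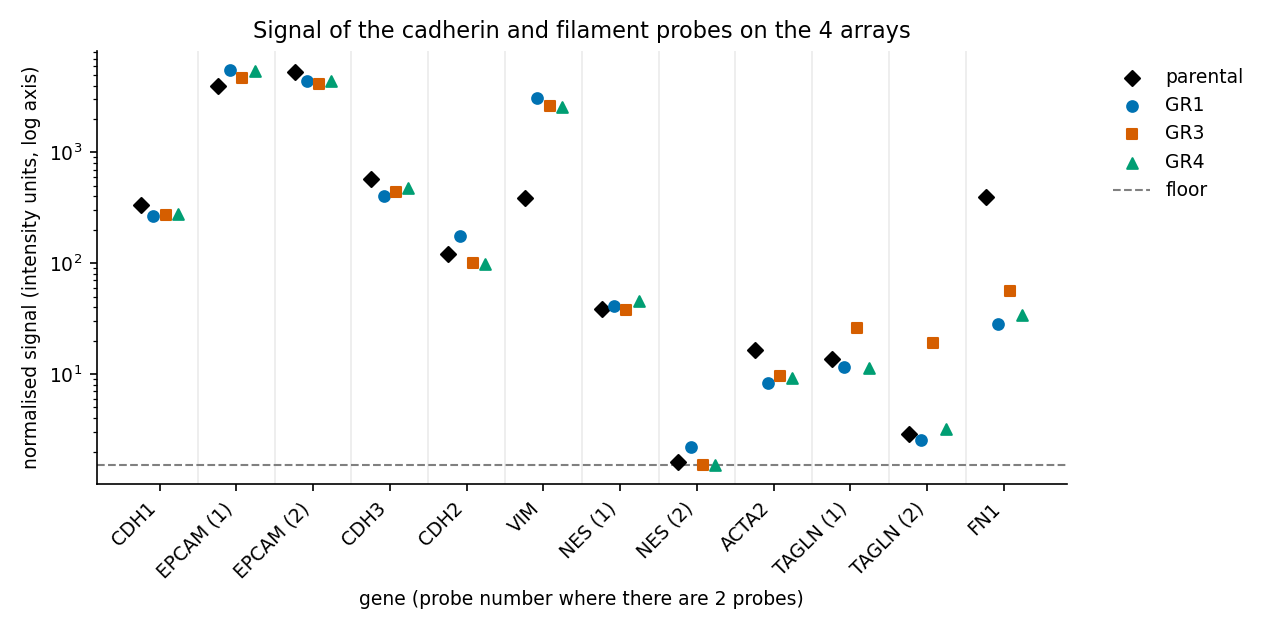
Normalised signal (vertical axis, intensity units, log scale) of the 12 tested probes (horizontal axis) on the parental array and the arrays of GR1, GR3 and GR4, 1 point per array, with the floor of 1.52 units dashed. VIM lies at 386 units on the parental array and at 2543 to 3115 units on the clones, and FN1 at 399 units against 28.3 to 55.8 units.

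The plot of signals by array shows the separation: for VIM and FN1 the parental point stands far from the 3 clones, for CDH1, CDH3 and both EPCAM probes the 4 points lie close together, and for TAGLN the GR3 point stands alone. Levels of different probes cannot be set against each other, because each probe binds its target with its own efficiency.

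VIM encodes vimentin, the intermediate filament protein of mesenchymal cells, which forms a cage around the nucleus and a network through the cytoplasm. Its signal was 386 units on the parental array, 3115 units on GR1, 2642 units on GR3 and 2543 units on GR4. All 3 clones lay far above the parental array, and the clones differed from each other by at most 1.23-fold. The clones were 8.07-fold, 6.84-fold and 6.59-fold above the parental array, a log2 difference of 2.84 ± 0.17 (SE, 3 clones against 1 array, 95% confidence interval 2.35 to 3.32), with an adjusted p of 0.0442 in limma. Among the 16592 genes tested, 38 had a higher difference. The direction and a difference of at least 1.92 held in every alternative run, but the adjusted p was 0.0503 with 2-column normexp, 0.0509 with no filter on dim probes, and 0.199, 0.0755 and 0.217 without GR1, GR3 or GR4.

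NES encodes nestin, an intermediate filament protein of neural and other progenitor cells that assembles together with vimentin. Its first probe read 39.0 units on the parental array, 40.9 units on GR1, 37.7 units on GR3 and 45.3 units on GR4. The parental array lay within the range of the clones. The log2 difference was 0.08 ± 0.15, with a 95% confidence interval of −0.37 to 0.53 and an adjusted p of 0.763 in limma, so the interval leaves out a rise of the size seen for VIM. The second NES probe lay at or near the floor, at 1.60 units on the parental array, 2.18 units on GR1 and 1.52 units on GR3 and GR4, and was not well above background on GR4.

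FN1 encodes fibronectin, a secreted glycoprotein of the extracellular matrix that cells bind through integrins. Its signal was 399 units on the parental array, 28.3 units on GR1, 55.8 units on GR3 and 33.8 units on GR4. Every clone lay far below the parental array, and GR3 was the highest of the clones, 1.65-fold above GR4. The parental array was 14.1-fold, 7.15-fold and 11.8-fold above GR1, GR3 and GR4, a log2 difference of −3.41 ± 0.45 (SE, 95% confidence interval −4.70 to −2.11). The adjusted p was 0.0517 in limma, just past the threshold, and 27 of the tested genes had a lower difference. The difference passed the test in 4 of 11 alternatives, with an adjusted p of 0.0121 where probes had to be above the limit on all 4 arrays, 0.0163 on the authors' deposited intensities, 0.0200 with normexp on the blank-subtracted signals and 0.04997 with the mean of all probes of a gene. It came to −1.78 with 2-column normexp, and was negative in every alternative run.

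Vimentin and fibronectin thus stood on opposite sides of the parental array in all 3 clones.

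**Figure D2:**
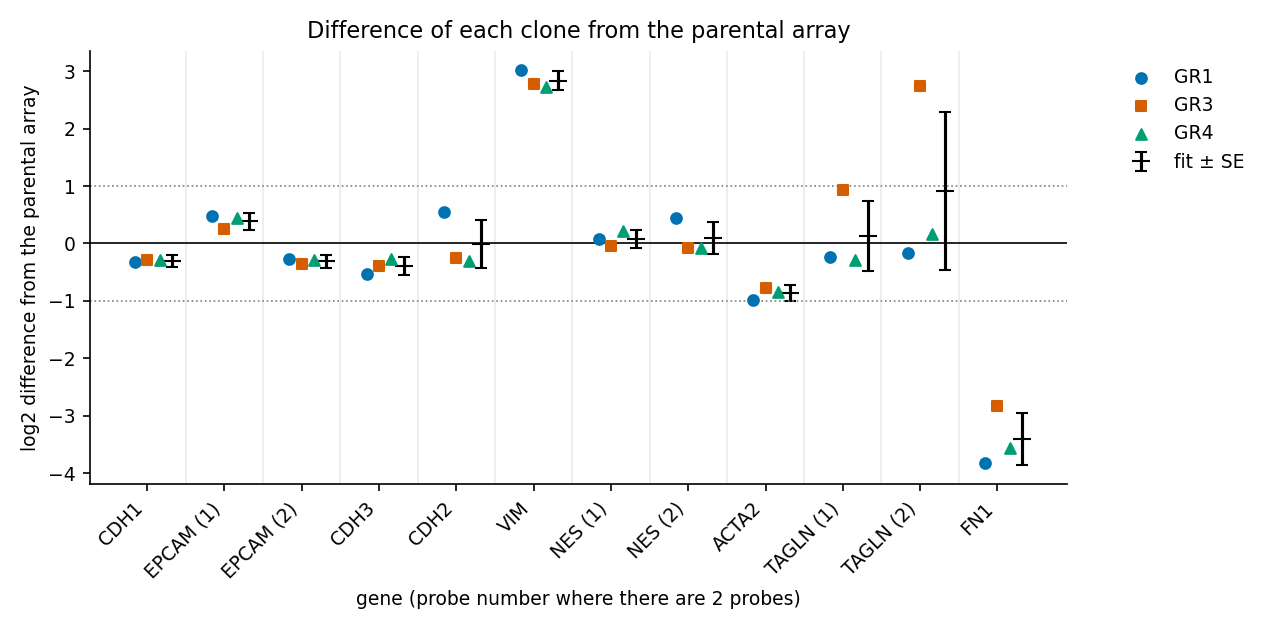
Log2 difference from the parental array (vertical axis) for each clone (1 point per clone) and for the fit with its SE (black bar) at each of the 12 tested probes (horizontal axis), with dotted lines at a 2-fold difference. VIM lies at 2.72 to 3.01 and FN1 at −3.82 to −2.84, while all points of CDH1, CDH3 and EPCAM lie inside the dotted lines.

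In the plot of clone differences, the error bar is narrow for CDH1 and wide for CDH2 and TAGLN, where 1 clone differs from the other clones. The bar reflects the spread among the clones for that probe and, through limma's moderation, for all tested probes. For CDH1 the SE was thus 0.10, although the clone SD was 0.021.

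CDH1 encodes E-cadherin, the adhesion molecule of epithelial adherens junctions. Its signal was 336 units on the parental array, 269 units on GR1, 275 units on GR3 and 276 units on GR4. The clones lay close together, with an SD of 0.021 on the log2 scale, and all 3 were below the parental array. The log2 difference was −0.30 ± 0.10 (SE, 95% confidence interval −0.60 to 0.004), with an adjusted p of 0.169 in limma. The difference depends on how arrays are scaled to each other. Before normalisation the signals above the blank spots were 289 units on the parental array and 296, 283 and 277 units on GR1, GR3 and GR4, which overlap. Over all alternatives the log2 difference ran from −0.47 to −0.02 and passed the test in 1 of 11, normexp on the blank-subtracted signals, with a log2 difference of −0.26 and an adjusted p of 0.0380.

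CDH3 encodes P-cadherin, another cadherin of epithelia, and is the neighbour of CDH1 among the protein-coding genes of chromosome 16 in GRCh38.p14. Its signal was 579 units on the parental array, 400.01 units on GR1, 441 units on GR3 and 481 units on GR4. The 3 clones lay below the parental array. The log2 difference was −0.40 ± 0.15 (SE, 95% confidence interval −0.84 to 0.05), with an adjusted p of 0.196 in limma, and it did not pass in any of 11 alternatives, the lowest value being −1.22 with 2-column normexp. With median scaling GR4 was no longer below the parental array, at a log2 difference of 0.04.

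CDH2 encodes N-cadherin, the cadherin of neural and mesenchymal cells. Its signal was 120 units on the parental array, 175 units on GR1, 101 units on GR3 and 97.5 units on GR4. GR1 lay above the parental array and the other clones below it, so the groups overlap. The log2 difference of the 3 clones was −0.003 ± 0.42, with a 95% confidence interval of −1.21 to 1.21 and an adjusted p of 1.0 in limma, and its sign turned in 7 of 11 alternatives. GR1 was 1.73-fold above GR3, the next clone, and the clone SD of CDH2 was larger than that of 93.9% of tested genes. With median scaling GR1 still stood above the parental array, by 0.72 on the log2 scale, with GR3 at −0.14 and GR4 at −0.12.

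CDH11 encodes cadherin-11, first described in osteoblasts and made by mesenchymal cells. Its probe was not well above background on any of the 4 arrays. Above the mean of the blank spots its signal was 0.632 units for the parental line and 0.294, 0.0960 and −0.922 units for GR1, GR3 and GR4, against limits of 1.32, 1.36, 1.28 and 1.18 units, and no fold is given.

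EPCAM encodes a surface glycoprotein of epithelial cells that supports adhesion and, when cut, releases a signalling fragment. It has 2 probes, which disagree. The first read 3949 units on the parental array and 5475, 4677 and 5382 units on GR1, GR3 and GR4, all above the parental array. The second, listed on the array as TACSTD1, read 5343 units on the parental array and 4426, 4161 and 4369 units on GR1, GR3 and GR4, all below it. The log2 differences were 0.39 ± 0.15 (95% confidence interval −0.04 to 0.82) and −0.31 ± 0.11 (−0.63 to 0.01), and their adjusted p-values in limma were 0.192 and 0.176. The data therefore give no direction for EPCAM. With 2-column normexp the first probe turned to −0.37 and the second came to −1.12, with GR3 alone at −2.37.

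ACTA2 encodes smooth muscle alpha-actin, the actin of smooth muscle cells and of activated fibroblasts. Its signal was 16.5 units on the parental array, 8.31 units on GR1, 9.68 units on GR3 and 9.14 units on GR4. All 3 clones were below the parental array and close to each other. The parental array was 1.83-fold above the clones, a log2 difference of −0.87 ± 0.14 (SE, 95% confidence interval −1.28 to −0.46), with an adjusted p of 0.0603 in limma. It passed in 1 of 11 alternatives, where probes had to be above the limit on all 4 arrays, with an adjusted p of 0.0363. With 2-column normexp, which adds 50 units to every signal, the difference shrank to −0.11.

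TAGLN encodes transgelin, an actin-binding protein of smooth muscle. Its first probe read 13.8 units on the parental array, 11.6 units on GR1, 26.2 units on GR3 and 11.2 units on GR4. The second probe read 2.86 units on the parental array, 2.53 units on GR1, 19.2 units on GR3 and 3.21 units on GR4. On both probes GR3 stood alone above the other 3 arrays, which lay close together. GR3 was 2.25-fold and 5.97-fold above the higher of the other clones on the first and second probe, and 1.91-fold and 6.71-fold above the parental array. TAGLN was the only one of the 9 genes, by its brightest probe, at which GR3 was at least 2-fold above both other clones, as was the case for 0.94% of all tested genes. With 1 array per clone, a difference between clones has no test.

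Because GR3 stood apart, the comparison of all clones with the parental array says little for TAGLN. The log2 differences were 0.13 ± 0.60 and 0.91 ± 1.37 on the probes, with adjusted p-values of 0.906 and 0.696 in limma. Without GR3 they were −0.27 and −0.002. With 2-column normexp the lead of GR3 over the parental array came to 0.06 and 0.13 on the log2 scale. That model adds 50 units to every signal, more than either probe read on any array. Among the fibroblast markers, LUM was also at least 2-fold above both other clones on GR3, at 562 units against 160 on GR1 and 266 on GR4, with 454 on the parental array, while COL1A2 was at the floor on GR3 and DCN and PDGFRB read 103 and 65.2 units there. The part of other cell types in the TAGLN signal was not tested.

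Each gene was then read beside others of its pathway, in lists that hold none of the 10 genes. Over 7 such lists, 8 of the 124 genes tested passed the limma test, 6 upwards and 2 downwards, where 4.06% of all tested genes did (2.17% upwards and 1.89% downwards). With 2-column normexp CTNNAL1 and THBS1 still passed (both at an adjusted p of 0.0425 in limma), while TGM2, ACTN1 and ELF3 did not (0.115, 0.563 and 0.0701), and ACTN1 came to 0.68.

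**Figure D3:**
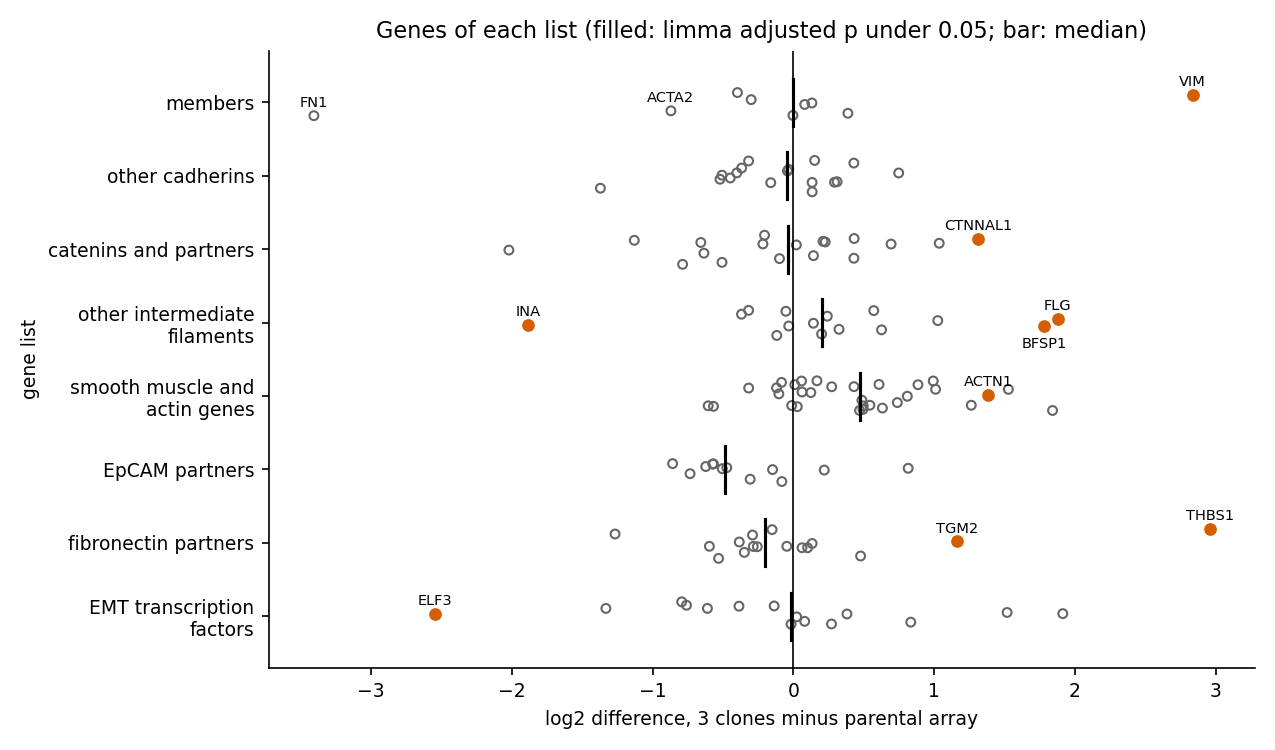
Log2 difference of the 3 clones from the parental array (horizontal axis) for each tested gene of the 10 members and of 7 pathway lists (vertical axis), 1 point per gene by its brightest probe, filled where limma's adjusted p was under 0.05, with the median of each list as a bar. The smooth muscle and actin genes have a median of 0.47 and the EpCAM partners a median of −0.49, against −0.015 for all genes.

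The plot of gene lists places VIM and FN1 at the outer ends of the 10 genes, with the other 7 between −0.87 and 0.39. In most lists the points gather near 0 and few are filled.

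Of 17 other cadherins tested, none passed the test in limma, the median log2 difference was −0.04 (0.02 on the authors' deposited values), and 14 were above the limit on all 4 arrays. Most were dim. CDH10 had the lowest difference, −1.37 ± 0.28 (adjusted p 0.0811 in limma), from 4.44 units on the parental array to 1.52 units, the floor, on GR1 and GR3 and 2.20 units on GR4, so its size depends on the floor. CDH15, the M-cadherin of muscle, had the highest, 0.75 ± 0.62 (adjusted p 0.480 in limma), and GR1 stood alone there at 7.22 units, against 2.44 units on the parental array, 3.05 on GR3 and 3.11 on GR4. With 2-column normexp and its added 50 units CDH10 came to −0.06 and CDH15 to 0.03. Among the clones GR4 was the highest for 8 of the 17 genes, GR1 for 5 and GR3 for 3. Over all tested genes GR1 and GR3 were the highest for 32.6% and 35.2%, and the share for GR4 is not given here.

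Among the catenins and other cadherin partners, 1 of 18 genes passed and the median was −0.04, which turned to 0.07 with median scaling. CTNNAL1, which encodes a protein similar to alpha-catenin, rose from 603 units on the parental array to 1470 units on GR1, 1541 on GR3 and 1480 on GR4, a log2 difference of 1.31 ± 0.11 (adjusted p 0.0442 in limma). The clones were nearly equal and all far above the parental array. The other genes described here were picked after their values were seen. CTNNB1, which encodes beta-catenin, the link between cadherin tails and alpha-catenin, read 552 units on the parental array and 317, 353 and 292 units on GR1, GR3 and GR4 (−0.79 ± 0.16, adjusted p 0.0777 in limma). CTNND1, which encodes p120 catenin, a protein that keeps cadherins at the surface, read 549 units on the parental array and 192, 361 and 228 units on the clones (−1.13 ± 0.42, adjusted p 0.181 in limma). Alpha-catenin, CTNNA1, differed by −0.22 ± 0.17 (adjusted p 0.456). CTNND2 had the lowest difference of the list, −2.02 ± 0.38 (adjusted p 0.0720 in limma), and was dim, at 11.3 units on the parental array. Other partners lay above the parental array in all 3 clones, such as NECTIN3 (1.04 ± 0.13, adjusted p 0.0503) and VCL (0.69 ± 0.24, adjusted p 0.165). By the mean of the clones, 9 of the 18 genes were higher.

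The list of other intermediate filaments and their binding proteins had 15 genes tested, of which 2 rose and 1 fell, with a median of 0.20 that turned to −0.009 with 2-column normexp. FLG encodes filaggrin, which bundles keratin filaments in the epidermis, and it rose from 27.4 units on the parental array to 102, 86.6 and 116 units on GR1, GR3 and GR4 (1.88 ± 0.21, adjusted p 0.0474 in limma). BFSP1, which encodes the lens filament protein filensin, rose from 5.07 units to 16.4, 15.9 and 20.4 units (1.78 ± 0.20, adjusted p 0.0479 in limma). INA, which encodes the neuronal filament protein internexin, fell from 5.99 units to 1.74 units on GR1, 1.52 on GR3 and 1.60 on GR4 (−1.89 ± 0.13, adjusted p 0.0442 in limma). The clones lay at or near the floor, so the size and the SE of this difference depend on the floor, and INA was tested because of its parental signal and was left out where probes had to be above the limit on all 4 arrays. DES, which encodes desmin of muscle, differed by −0.32 (adjusted p 0.195), and GFAP of astrocytes by 0.24 (adjusted p 0.553). With 2-column normexp, which adds 50 units to every signal, FLG came to 0.33, BFSP1 to 0.15 and INA to −0.006, and none of them passed.

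Of the smooth muscle and actin genes, 1 of 31 passed and the median was 0.47, between 0.45 and 0.49 under the other scalings. It came to 0.10 with normexp on the blank-subtracted signals and to 0.09 with 2-column normexp. Both add 50 units to every signal, which draws the differences of dim genes towards 0. All 3 clones were above the parental array for 18 of the 31 genes and below it for 3, where 35.3% and 37.8% of all genes were. ACTN1, which encodes alpha-actinin, a crosslinker of actin filaments, rose from 208 units on the parental array to 576, 551 and 504 units on GR1, GR3 and GR4 (1.38 ± 0.13, adjusted p 0.0444 in limma). MYLK, the kinase of the myosin light chain, had a larger difference but did not pass (1.84 ± 0.31, adjusted p 0.0641), at 7.47 units on the parental array and 24.6, 35.1 and 22.3 units on the clones. MYLK and the genes that follow were picked after their values were seen. The tropomyosin genes TPM1 and TPM2 differed by 1.01 ± 0.22 (adjusted p 0.0852) and 0.74 ± 0.20 (adjusted p 0.114), and caldesmon, CALD1, by 0.81 ± 0.20 (adjusted p 0.105). With quantile normalisation the log2 difference of ACTA2 lay below those of all 31 genes, whose lowest was −0.60, that of SMTN.

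**Figure D4:**
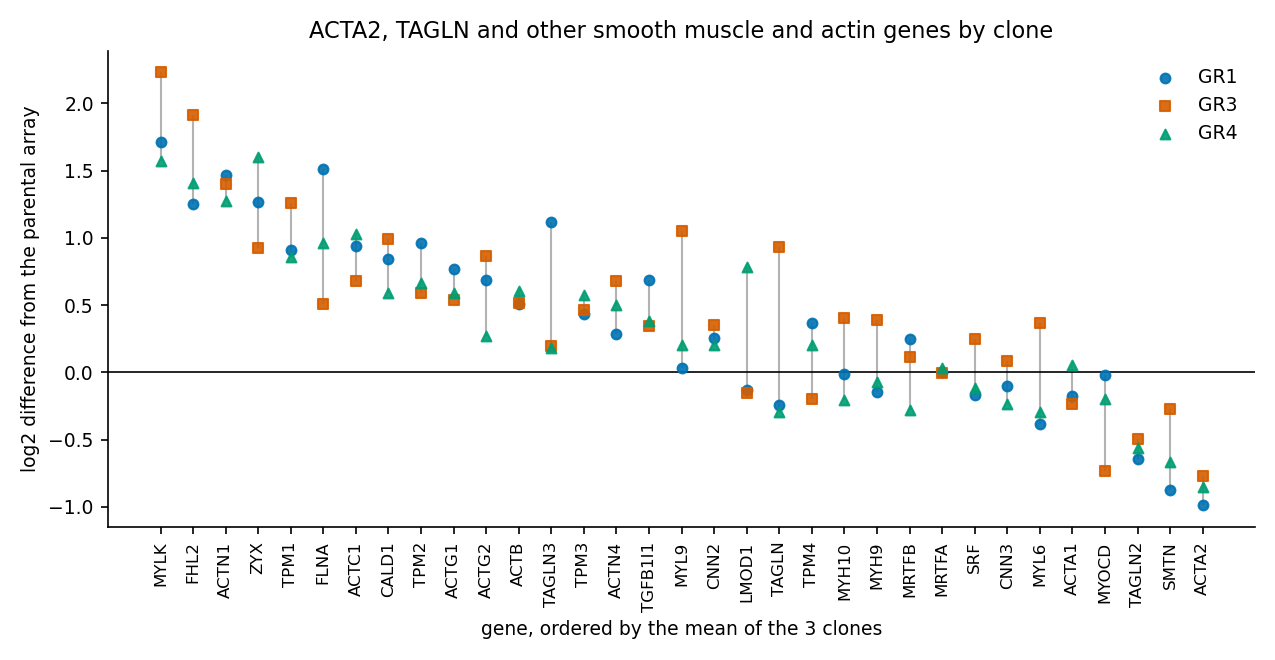
Log2 difference from the parental array (vertical axis) of ACTA2, TAGLN and the 31 other smooth muscle and actin genes tested (horizontal axis, ordered by the mean of the clones), 1 point per clone and gene, joined by a line. ACTA2 stands at the low end with all 3 clones between −0.99 and −0.77, and the TAGLN and MYL9 points of GR3, at 0.93 and 1.05, stand above those of the other clones.

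In the plot of actin genes by clone, GR3 was the highest clone for 15 of the 31 genes, and for 35.2% of all tested genes. MYL9, which encodes a myosin light chain of smooth muscle and was picked after its values were seen, was also highest on GR3. It read 11.7 units for the parental line and 12.04, 24.4 and 13.5 units for GR1, GR3 and GR4. No gene of the list was at least 2-fold above both other clones on GR3. Genes of the transcription factor that binds CArG boxes and its partners, SRF, MRTFA and MYOCD, differed by −0.01, 0.01 and −0.32 (adjusted p 0.980, 0.962 and 0.576 in limma). CNN1 and MYH11, markers of mature smooth muscle, were on the array but were not tested, since they did not meet the limit for detection in the parental sample or in every clone.

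None of the 12 EpCAM partners and proteases tested passed in limma, their median was −0.49, and 9 of them were lower and 2 higher than the parental array in all 3 clones, where 37.8% and 35.3% of all genes were. The median was −0.31 with median scaling, −0.24 with normexp on the blank-subtracted signals and −0.15 with 2-column normexp. CD9, a tetraspanin, read 2101 units on the parental array and 1030, 1463 and 1035 units on GR1, GR3 and GR4 (−0.86 ± 0.27, adjusted p 0.145). CD44, a hyaluronan receptor, read 250 units on the parental array and 472, 361 and 500 units on the clones (0.82 ± 0.24, adjusted p 0.129). Claudin-7, CLDN7, which binds EpCAM at the lateral membrane and was picked after its values were seen, read 1981 units on the parental array and 1174, 1212 and 1188 units on the clones (−0.73 ± 0.11, adjusted p 0.0544 in limma). It passed in 2 of 11 alternatives, with an adjusted p of 0.0153 with normexp on the blank-subtracted signals and 0.0432 where probes had to be above the limit on all 4 arrays, and came to −0.42 with no normalisation between arrays.

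Of 16 fibronectin receptors and matrix partners, 2 rose and none fell in limma, and the median was −0.20 (0.02 with no normalisation between arrays). THBS1 encodes thrombospondin-1, a matrix glycoprotein that binds fibronectin, and it rose from 101 units on the parental array to 731 units on GR1, 901 on GR3 and 738 on GR4, 7.77-fold (2.96 ± 0.18, adjusted p 0.0442 in limma). TGM2, the tissue transglutaminase that crosslinks matrix proteins and links fibronectin to integrins, rose from 1052 units to 2149, 2426 and 2488 units (1.16 ± 0.14, adjusted p 0.0499 in limma). The integrin chains of the main fibronectin receptor, ITGA5 and ITGB1, differed by −0.53 ± 0.21 (adjusted p 0.196) and −0.26 ± 0.15 (adjusted p 0.332). ITGB6, a chain of an epithelial receptor of fibronectin, had the lowest difference of the list, from 130 units to 46.3, 66.7 and 51.4 units (−1.27, adjusted p 0.0786), and was picked after its values were seen. The clones thus differed from the parental array upwards for THBS1 and downwards for FN1, in all 3 clones each.

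Transcription factors of the transition and of epithelial identity gave 1 call among 15 genes tested, with a median of −0.02 that turned to 0.04 with no normalisation between arrays. ELF3, an ETS factor of epithelia, fell from 3075 units on the parental array to 468 units on GR1, 643 on GR3 and 489 on GR4, a 5.83-fold difference (−2.54 ± 0.24, adjusted p 0.0444 in limma). SNAI2, which encodes Slug, a repressor of CDH1, read 157 units on the parental array and 438, 960 and 495 units on GR1, GR3 and GR4. All clones lay above the parental array, GR3 highest, but the spread was wide (1.91 ± 0.53, adjusted p 0.121 in limma). SNAI1, which encodes Snail, was dim, at 2.90 units on the parental array and 8.19, 5.47 and 12.8 units on the clones (1.52 ± 0.54, adjusted p 0.171). ZEB1, ZEB2 and TWIST1 differed by 0.83, −0.61 and 0.02 (adjusted p 0.306, 0.183 and 0.931 in limma). KLF4, FOXC2 and OVOL1 were lower in all 3 clones, with differences of −1.33, −0.79 and −0.76 (adjusted p 0.0726, 0.0668 and 0.0837 in limma). Other genes of the list went both ways. GRHL2 and ESRP2 were higher in all 3 clones, by 0.38 and 0.27 (adjusted p 0.616 and 0.336 in limma). OVOL2 and ESRP1 were lower in all 3 clones, at −0.14 and −0.39 (adjusted p 0.561 and 0.241 in limma). By the mean of the clones, 7 of the 15 genes were higher. All genes named in this paragraph other than ELF3 were picked after their values were seen.

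The genes most like 4 of the 10 were sought by the Euclidean distance over the 3 log2 differences of the clones, among 15895 genes above the limit on all 4 arrays. For VIM they were AKAP12, a scaffold of protein kinase A, at 3.09, 2.76 and 2.62 on GR1, GR3 and GR4 (distance 0.128), and MAMLD1 (distance 0.235). With 2-column normexp and its added 50 units the log2 differences of AKAP12 and MAMLD1 came to 0.73 and 0.14. For FN1 they were GSTM4, a glutathione transferase, at −3.75, −2.65 and −3.30 (distance 0.329), and the class II histocompatibility gene HLA-DRA (distance 0.403). For CDH1 they were KRT10 and TAX1BP1 (distances 0.0212 and 0.0245), and for CDH2 RHBDL3 and SPG7 (distances 0.0406 and 0.0728). Many genes lie near 0, so a short distance was easier to reach for CDH1 and CDH2 than for VIM and FN1.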

How the data were processed

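Messenger RNA of Panc1 and of 3 resistant clones was measured on 1 Toray 3D-Gene array each. The deposited scanner files give an intensity per spot and a column headed as background. In a second deposited table the intensity is net of the blank spots, per the labels' design text. Subtracting the blank mean, taken over the middle 90% of those spots, and dividing by 1 scale per array gave the authors' values within 0.000206 units.

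The same blank mean was subtracted here, signals were quantile normalised, set to at least 1.52 units and log2 transformed. The background column correlated with the spot signal across spots (r from 0.932 to 0.962, log scale), so the normexp model that needs it was an alternative (2-column normexp). Both normexp runs added an offset of 50 units to every signal before normalisation. A probe was tested where the parental sample or every clone exceeded the limit, 2 SD over the blank mean (22796 probes), and 11 probes with a faulty spot were left out. The clones and the parental sample were compared in limma 3.58.1 (R 4.3.3; lmFit and eBayes, two-sided, Benjamini-Hochberg over all tested probes, threshold 0.05, 2 residual degrees of freedom). The scripts were tested on simulated data. A gene is represented by its brightest probe, but all probes of the 10 genes are given.

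The 10 genes, the lists and the alternatives were chosen with earlier results of these data known. All members were named, with every gene of a list that passed (at most 4 in each direction) or, where none passed, the 2 with the largest difference, and the 2 genes nearest to CDH1, CDH2, VIM and FN1. RefSeq (GRCh38.p14) gave current symbols, gene order and promoters.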

Additional observations from a re-analysis of the deposited data

How the results depend on the processing

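In place of 674 genes, limma called 147 with 2-column normexp, 2199 with normexp on the blank-subtracted signals, 208 with no normalisation between arrays, 2127 with probes above the limit on all 4 arrays and 2121 on the authors' values. It called 0 with no filter on dim probes (5403 at an unadjusted p under 0.05), and 0 without any one clone (0 to 0 in the 3 fits, with 3560 to 6092 at an unadjusted p under 0.05). Of the 9 genes, in place of 1, limma called 0, 3, 3 and 2 in the first 2 settings, the stricter filter and the authors' values, 2 with the mean of all probes of a gene, 0 with no filter, and 0 without any one clone. Of the 124 genes of the lists, in place of 8, it called 2, 18, 5, 19 and 18 in the order of the first sentence, 0 with no filter, and 0 without any one clone. In place of 1205 genes 2-fold apart in all 3 clones there were 319 with 2-column normexp, 410 with normexp on the blank-subtracted signals, 3083 at 1.5-fold and 382 at 3-fold. VIM and FN1 were 2-fold apart in every setting that kept the 2-fold rule. The share of called genes higher in the clones was 53.4%, and 36.7%, 63.8% and 70.6% with 2-column normexp, median scaling and the authors' values. Of the 2-fold genes 50.4% were higher, and 65.1% with no normalisation and 63.6% on the authors' values. With no normalisation the median of all genes moved by 0.10 on the log2 scale. Signs turned for CDH2 (0.18 with 2-column normexp, 0.0085 with normexp on the blank-subtracted signals, 0.15 with median scaling, 0.19 with no normalisation, 0.15 on the authors' values, and −0.28 to 0.15 without 1 clone). With 2-column normexp they turned for the first probes of EPCAM (−0.37), NES (−0.022) and TAGLN (−0.0097). Without 1 clone they turned for the second NES probe (−0.074 without GR1, range −0.074 to 0.18) and for TAGLN (range −0.27 to 0.34 and −0.0021 to 1.46 on the first and second probe). The causes were not tested. No paired analysis was possible because the parental line has 1 array. Signal over background limits the second NES probe, CDH11 and the other dim probes.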
